A study of Mus musculus with 7 samples.

Results

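The 10 genes described here encode early germ layer and extraembryonic transcription factors (TFs), namely Gata2, Gata3, Gata4, Gata6, Foxa2, Eomes, Cdx2, Mixl1, Sox17 and Pax6. They were found by gene symbol in the deposited count table, where all 10 were present among 55484 genes listed. Their levels in mESCs, where the genes of differentiated lineages can mark cells that drift from the pluripotent state, were compared with those in MEFs. Drift itself was not measured. mESCs are pluripotent cells derived from the mouse embryo before implantation, and MEFs are fibroblasts grown from mouse embryos. The 3 mESC and 4 MEF RNA-seq libraries have no treatment in their labels, and all are labelled with a C57/Bl6 background. The labels give no age, sex, cell line or passage, and p-values measure the spread between these libraries. The study describes its expression data as biological replicates, 3 for each cell type, without naming the MEF libraries it used, and all 4 MEF libraries were used here. For its chromatin libraries the study sorted MEFs as THY1+ cells and mESCs as THY1-/SSEA1+/EPCAM+ cells, and whether the RNA-seq cells were sorted in the same way is not stated. The extraction text of the labels names blood stem cells, while the titles and cell types name MEFs and mESCs.

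In the first cell fate decision of the embryo, Cdx2, Eomes, Gata3 and Gata2 act in the trophectoderm, which forms the placenta. In the next one, Gata6, Gata4 and Sox17 specify the primitive endoderm, which forms the yolk sac, and Foxa2 acts in both extraembryonic and definitive endoderm. At gastrulation Eomes and Mixl1 mark the primitive streak and its mesendoderm, and Pax6 marks the neuroectoderm. Cultures of mESCs are known to hold some cells that express primitive endoderm genes.

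Counts were divided by the library total and scaled to a common size (CPM). Because the libraries are 3′-biased and were collapsed by unique molecular identifiers, a count stands for about one molecule near the end of a transcript, and CPM was not divided by length. The libraries held 6528643 to 11441278 counts and are named by these totals. A floor of 3 counts corresponded to 0.262 to 0.460 CPM and covers counting error only. All 10 genes of a pluripotency list were higher in mESCs and all 10 of a fibroblast list lower, as the cell type labels say. The summed level of the pluripotency list was 168 to 210 CPM in MEFs and 3540 to 3840 CPM in mESCs, and that of the fibroblast list was 23900 to 38600 CPM in MEFs and 416 to 448 CPM in mESCs. The TMM scaling used in the test lowered the median log2 fold change of all tested genes by 0.29 relative to library size alone, and changes are given relative to that scaling.

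Of the 10 TFs, 9 were above the floor in every mESC library and 6 in every MEF library, where 30.6% of all genes listed were above it in every mESC library. The 6 found in both were Gata2, Gata3, Gata6, Eomes, Mixl1 and Pax6. The summed level of the 10 TFs was 63.6 to 73.7 CPM in MEFs and 65.4 to 96.0 CPM in mESCs, so these ranges overlapped. In the fit across all genes, to which every adjusted p below refers, 16580 genes had enough counts to be tested, of which 47.9% passed the threshold of 0.05 on the Benjamini-Hochberg adjusted p of edgeR (quasi-likelihood fit), 22.8% higher and 25.0% lower in mESCs. Of the TFs, 6 were tested and 2 passed, with Eomes higher and Gata3 lower in mESCs. With DESeq2, 50.1% of the genes passed, 24.3% higher and 25.8% lower, and 4 of the 6 TFs. The median log2 fold change of the 6 was -0.04, beside 0.04 over all tested genes. Gata4, Foxa2, Cdx2 and Sox17 had too few counts for that test and are given by their counts.

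**Figure D1:**
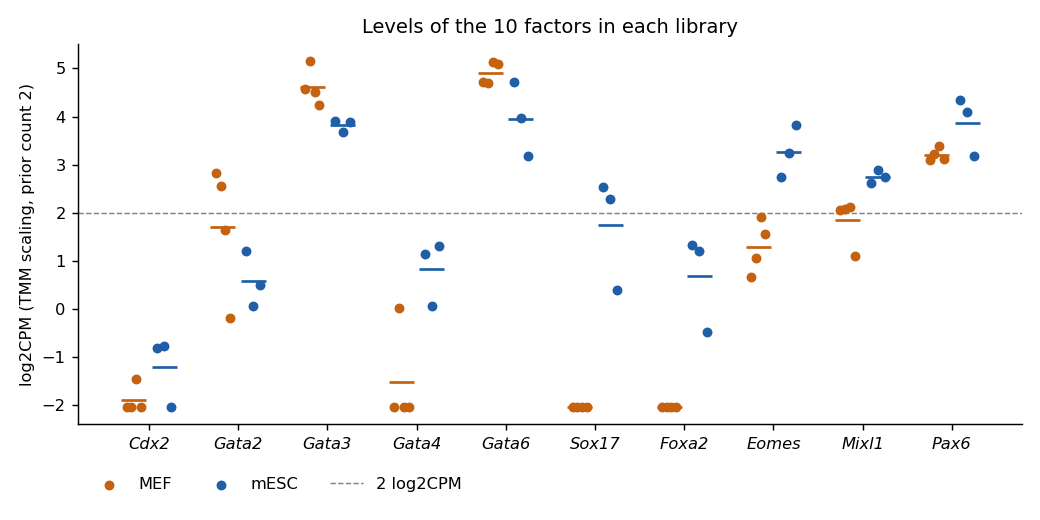
Levels of the 10 TFs in each of 4 MEF (orange) and 3 mESC (blue) libraries on the y axis as log2CPM (TMM scaling, prior count 2), with the mean of each cell type as a bar and a dashed line at 2 log2CPM. Sox17 and Foxa2 had 0 counts in all 4 MEF libraries, while the 4 MEF libraries of Eomes lay below all 3 mESC libraries.

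The promoters of Eomes and Gata3, the TFs that passed the test, are shown with each CG dinucleotide in capitals. Both sequences are from RefSeq on GRCm38.p6 and run from 250 bases before to 50 bases after an annotated start on the strand of the gene. The Eomes window lies on the plus strand at chr9:118477939-118478238 and the Gata3 window on the minus strand at chr2:9878551-9878850.
Eomes: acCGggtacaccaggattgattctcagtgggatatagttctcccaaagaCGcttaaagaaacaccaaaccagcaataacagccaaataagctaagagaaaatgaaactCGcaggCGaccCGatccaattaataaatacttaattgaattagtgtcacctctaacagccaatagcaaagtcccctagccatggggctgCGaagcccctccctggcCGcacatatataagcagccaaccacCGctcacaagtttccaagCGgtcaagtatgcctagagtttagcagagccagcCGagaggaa
Gata3: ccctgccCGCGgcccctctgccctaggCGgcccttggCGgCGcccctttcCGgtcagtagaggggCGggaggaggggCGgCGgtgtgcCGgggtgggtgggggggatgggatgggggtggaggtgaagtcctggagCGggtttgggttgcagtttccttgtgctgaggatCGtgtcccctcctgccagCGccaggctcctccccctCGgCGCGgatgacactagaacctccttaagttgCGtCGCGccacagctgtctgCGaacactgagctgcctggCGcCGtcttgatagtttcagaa
The Eomes window held 10 CG dinucleotides and the Gata3 window 22. Of the 10 TFs, 6 had an entry in the promoter table, with 10 windows between them (Gata2, Gata3, Foxa2, Eomes, Cdx2 and Pax6). These windows held 10 to 32 CG dinucleotides with a median of 18, against a median of 7 over all 32851 windows of the table. The highest number was in a Gata2 window, and 9.52% of all windows held at least as many. The Eomes window had the lowest number of the member windows, which 43.5% of all windows reached. The 3′-biased counts do not show which start was used.

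Among the trophectoderm TFs, Eomes was higher in mESCs, Gata3 was lower, and Cdx2 was at or under the floor in every library. Eomes (ENSMUSG00000032446.14, chromosome 9 of GRCm38, 118478212 to 118486132), a T-box factor of trophoblast stem cells and of the primitive streak, had 1.22 CPM in the MEF library of 11441278 counts, 1.64 in that of 7312679, 3.16 in that of 9176467 and 2.60 in that of 6528643. In the mESC libraries of 8193825, 8057985 and 7462710 counts it had 7.32, 10.1 and 15.8 CPM. Every mESC library was above every MEF library. Values of the other TFs are given in the same orders of libraries. Its log2 fold change was 2.08 ± 0.432 (SE), a 4.22-fold higher level in mESCs (adjusted p = 0.00237, edgeR), and an exact permutation test of the 7 values gave p = 0.0286, two-sided, the smallest that 4 against 3 libraries allow. When one library was left out in turn, its log2 fold change was 1.74 to 2.34 and it passed in 7 of 7 fits. Of the 50-base sequences of Eomes, 2.10% also occur in transcripts of other genes, and its exons overlap the antisense gene Gm33460, which had 6 counts in all libraries together.

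Gata3 (chromosome 2, 9857078 to 9890034), a zinc finger factor of trophectoderm that also acts in many later tissues, had 21.4, 31.6, 20.6 and 18.1 CPM in the MEF libraries. The mESC values were 16.6, 13.7 and 16.5 CPM. All 3 mESC levels lay below the lowest MEF level. Its log2 fold change was -0.85 ± 0.253 (SE), a 1.80-fold lower level in mESCs (adjusted p = 0.018, edgeR), and the exact permutation test gave p = 0.0571, two-sided. The call was lost without scaling beyond library size, where the log2 fold change was -0.55 (adjusted p = 0.0856, edgeR), and without the mESC library of 8057985 counts, where it was -0.78 (adjusted p = 0.0605, edgeR). In mESCs Gata3 held 68.5% of its pooled MEF level, where the 10 fibroblast genes held 0.565% to 51.0% with a median of 1.25%. The highest of these were Fn1 at 51.0% and Twist1 at 10.0%, and the part of fibroblasts in the mESC level was not tested.

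Gata2 (chromosome 6, 88193891 to 88207032), which acts in trophoblast and in blood and endothelial progenitors, had 6.21, 5.06, 2.62 and 0.613 CPM in the MEF libraries. It had 2.32, 0.869 and 1.34 CPM in the mESC libraries, so the cell types overlapped. The MEF libraries spanned 10.1 times from lowest to highest, and the log2 fold change was -1.57 ± 0.719 (SE) (adjusted p = 0.0971, edgeR). The exact permutation test gave p = 0.257, two-sided. Without the MEF library of 6528643 counts, which had 4 counts of Gata2, the log2 fold change was -1.92 (adjusted p = 0.0166, edgeR). Markers of blood and endothelium differed over the same MEF libraries. Of the endothelial markers, only Emcn was highest and lowest in the same libraries as Gata2, with 15.2, 10.3, 11.6 and 3.98 CPM. Pecam1 had 2.01, 2.46, 2.62 and 3.22 CPM, and Egfl7 had 16.9, 13.7, 14.9 and 21.0 CPM. Pecam1, Egfl7 and Cdh5 were highest in the library of 6528643 counts, where Gata2 was lowest. Tek and Tie1 were highest in that of 9176467 counts. Kdr, a receptor of endothelial and mesodermal progenitors, had 2.71, 3.28, 0.872 and 0.919 CPM. The blood marker Cd53 had 2.36, 0.957, 2.29 and 4.6 CPM. The part of such cells in the level of Gata2 was not tested.

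Cdx2 (chromosome 5, 147300805 to 147307270), the homeobox factor that sets up the trophectoderm, had 0, 0, 1 and 0 counts in the MEF libraries. mESCs had 3, 3 and 0 counts. No library was above the floor, so a difference between the cell types was not detectable at this depth. The 6 pooled mESC counts amount to 0.253 CPM.

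Of the primitive endoderm TFs, Gata6 was found in both cell types at levels that overlapped, while Sox17, Foxa2 and Gata4 had almost no counts in MEFs. Sox17 (chromosome 1, 4490931 to 4497354), an HMG box factor of primitive and definitive endoderm, had 0 counts in each of the 4 MEF libraries. mESCs had 51, 41 and 9 counts, which are 6.22, 5.09 and 1.21 CPM. Its pooled mESC level of 4.26 CPM was 48.9-fold above a floor of 3 counts over the pooled MEF libraries. The library of 7462710 counts stood below the others, and its 95% counting interval (exact Poisson) of 0.551 to 2.29 CPM did not reach that of the library of 8057985 counts, 3.65 to 6.90 CPM. Sox17 missed the filter on counts. With the filter, it was tested only when that library, its lowest in mESCs, was left out, so that fit adds no support. Without a filter beyond 1 count it passed (adjusted p = 8.51e-05, edgeR), where 24.5% of 33544 genes passed, 11.7% higher and 12.8% lower in mESCs. The exact permutation test gave p = 0.0286, two-sided. Its exons overlap those of Gm37587 on the opposite strand by 16.85% of their length, a gene with 7 counts in all libraries together, and 14.99% of the 50-base sequences of Sox17 also occur in 1 other gene. Sox17 is also known from endothelium. Of 6 endothelial markers, 5 were above the floor in every mESC library and 4 in every MEF library. In mESCs, Pecam1 had 24.8, 41.8 and 33.4 CPM, Egfl7 62.9, 65.5 and 60.4 CPM, and Emcn 7.20, 11.9 and 9.65 CPM. The cadherin gene Cdh5 had 3, 1 and 0 counts. Between the mESC libraries of 8193825 and 7462710 counts, the median CPM ratio was 0.744 for 4 endothelial markers and 5.16 for Sox17. The part of endothelial cells in the level of Sox17 was not tested.

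Foxa2 (chromosome 2, 148042877 to 148046969), a forkhead factor of endoderm and midline, had 0 counts in each MEF library as well. In the mESC libraries it had 21, 18 and 4 counts, which are 2.56, 2.23 and 0.536 CPM. Their pooled level of 1.81 CPM was 20.8-fold above the floor of the pooled MEF libraries. The same mESC library was low as for Sox17. Without a filter beyond 1 count Foxa2 passed (adjusted p = 0.00159, edgeR), and the exact permutation test gave p = 0.0286, two-sided. In such bulk libraries, a few cells with a high level and many cells with a low level of Sox17 or Foxa2 cannot be told apart.

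Gata4 (chromosome 14, 63198922 to 63271692), a zinc finger factor of primitive endoderm and heart, had 0, 5, 0 and 0 counts in the MEF libraries. Counts of Gata4 in mESCs were 18, 7 and 19, or 2.20, 0.869 and 2.55 CPM. Each mESC library was above the one MEF library with counts, which had 0.684 CPM. The exact permutation test gave p = 0.0571, two-sided, on log2CPM and p = 0.0286 on CPM over library totals, and without a filter beyond 1 count Gata4 did not pass (adjusted p = 0.0513, edgeR). With the filter, Gata4 was tested only when the mESC library of 8057985 counts, its lowest, was left out. It then passed narrowly (log2 fold change 3.5, adjusted p = 0.0482, edgeR). That fit adds no support, because leaving out the lowest mESC library is what let Gata4 through the filter. Unlike Sox17 and Foxa2, Gata4 was not low in the mESC library of 7462710 counts.

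Gata6 (chromosome 18, 11052064 to 11085635), which starts the primitive endoderm program, had 23.6, 23.1, 31.7 and 32.6 CPM in the MEF libraries. Its mESC levels were 29.3, 16.9 and 10.0 CPM. One mESC library thus reached the MEF range and the others lay below it, with a 2.91-fold span among mESC libraries against 1.41-fold among MEF libraries. Its log2 fold change was -0.84 ± 0.327 (SE) (adjusted p = 0.0554, edgeR), and the exact permutation test gave p = 0.0857, two-sided. Without the mESC library of 8193825 counts, the log2 fold change was -1.31 (adjusted p = 0.00739, edgeR), and without that of 7462710 counts it was -0.54. Gata6 held 69.5% of its pooled MEF level in mESCs.

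**Figure D2:**
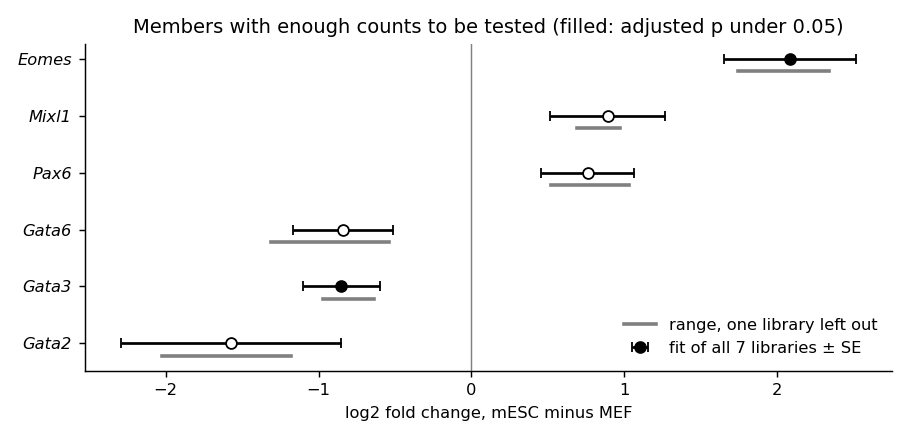
Log2 fold changes (x axis, mESC minus MEF) of the 6 tested TFs, with standard errors from edgeR's fit of all 7 libraries and, in grey, the range when one library was left out in turn. Eomes and Gata3 (filled) passed an adjusted p of 0.05, and the grey range of every TF stayed on one side of 0.

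Mixl1, Pax6 and Eomes, which mark the primitive streak and the neuroectoderm, had the higher means in mESCs. Mixl1 (chromosome 1, 180693043 to 180697034), a homeobox factor of the primitive streak, had 3.58, 3.56, 3.71 and 1.84 CPM in the MEF libraries. In the mESC libraries it had 6.59, 7.82 and 7.37 CPM, the smallest relative span of any TF there, 1.19-fold. All mESC levels were above all MEF levels (exact permutation test, two-sided, p = 0.0286), while its log2 fold change of 0.89 ± 0.374 (SE) missed the threshold of the fit (adjusted p = 0.0718, edgeR). Without scaling beyond library size it was 1.19 and passed (adjusted p = 0.02, edgeR).

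Pax6 (chromosome 2, 105668900 to 105697364), a paired box factor of neural and eye progenitors, had 7.60, 8.07, 9.26 and 8.12 CPM in the MEF libraries. mESCs had 22.6, 18.5 and 10.0 CPM. The lowest mESC level was close to the highest MEF level, and on the TMM-scaled values the cell types overlapped. Its log2 fold change was 0.76 ± 0.305 (SE) (adjusted p = 0.0609, edgeR). The exact permutation test gave p = 0.0857, two-sided, on log2CPM and p = 0.0286 on CPM over library totals. Pax6 passed in 3 alternatives and missed the threshold in 10. It passed with DESeq2 (0.78, adjusted p = 0.0408) and without scaling beyond library size (1.05, adjusted p = 0.0138, edgeR). It also passed without the mESC library of 7462710 counts (1.03, adjusted p = 0.0122, edgeR). Of its 50-base sequences, 0.44% also occur in transcripts of other genes.

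On the TMM-scaled values, mESC and MEF libraries were fully separated for 6 of the 10 TFs, with Gata4, Foxa2, Eomes, Mixl1 and Sox17 higher and Gata3 lower in mESCs. Of the 10 TFs, 9 were above the floor in any library, and of the 6 tested ones Gata3, Eomes and Mixl1 were separated. For Gata4 the lowest mESC level was 0.05 log2CPM, from 7 counts, and the highest MEF level was 0.01, from 5 counts. Of the 26320 genes above the floor in any library, 38.0% were separated in this way, as were 52.0% of the tested genes (25.8% higher in mESCs). For its motif analysis the study counted a TF as robustly expressed in mESCs above 2 log2CPM and at a higher level than in MEFs. By this rule 3 of the 10 TFs qualified, where 12.1% of all genes listed and 40.5% of the genes tested did. Eomes had a mean of 3.27 ± 0.54 log2CPM in mESCs and 1.29 ± 0.54 in MEFs (SD, n = 3 and 4). Mixl1 had 2.75 ± 0.14 and 1.84 ± 0.49 log2CPM, and Pax6 had 3.87 ± 0.61 and 3.20 ± 0.13 log2CPM. Gata3 and Gata6 were above 2 log2CPM in mESCs, with 3.82 and 3.95, but had the higher means in MEFs. Sox17 missed the rule with 1.73 log2CPM, and qualified when the mESC library of 7462710 counts was left out.

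The mESC libraries differed among themselves in Sox17, Foxa2, Gata6 and Pax6, each highest in the library of 8193825 counts and lowest in that of 7462710 counts. The ratio between these libraries was 5.16 for Sox17, 4.78 for Foxa2, 2.91 for Gata6 and 2.25 for Pax6. Of 16340 genes with at least 30 counts in mESCs, 8.38% had a ratio above 2, and the median was 1.0. Eomes went the other way, with a ratio of 0.463 and counting intervals of 5.59 to 9.43 and 13.1 to 18.9 CPM that did not overlap. Gata2, Gata3, Mixl1 and Gata4 had ratios of 1.73, 1.01, 0.894 and 0.863, and the counting intervals of these libraries overlapped. Gata2 was lowest in the library of 8057985 counts. None of 7 early neural genes with at least 30 counts in mESCs had the order of Pax6 or a ratio above 2. Counting intervals cover counting error only and not the spread between cultures.

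**Figure D3:**
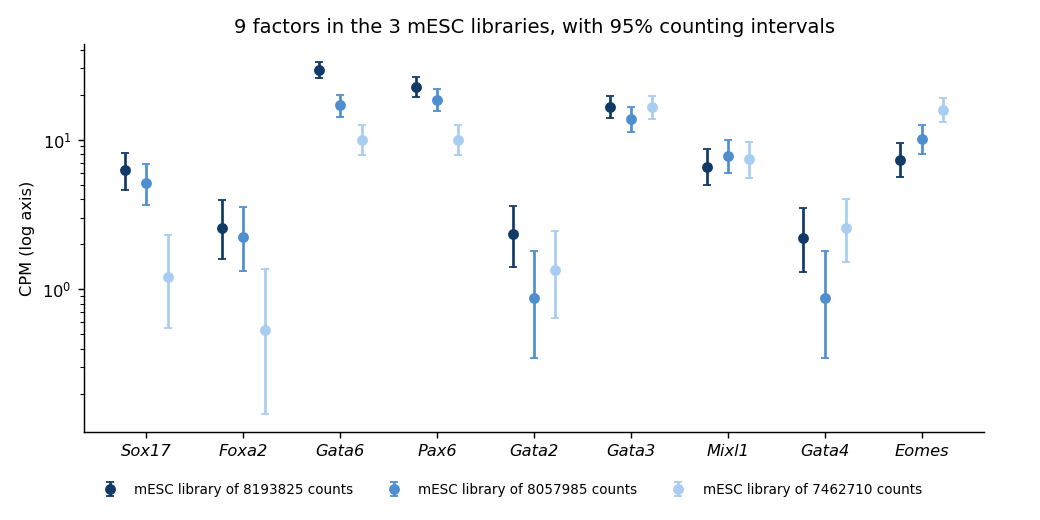
CPM (y axis, log scale) of 9 TFs in the 3 mESC libraries, with exact Poisson 95% counting intervals. Sox17, Foxa2, Gata6 and Pax6 were lowest and Eomes highest in the library of 7462710 counts, while Gata3 and Mixl1 were level.

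A list of 16 primitive endoderm genes was set beside these TFs, with the pluripotency and fibroblast lists for comparison. Of the 12 primitive endoderm genes with at least 30 counts in mESCs, 9 were highest in the mESC library of 8193825 counts and lowest in that of 7462710 counts, an order that 15.2% of the 16340 genes, 4 of the 10 pluripotency genes, 2 of the 10 fibroblast genes and 2 of 8 trophoblast genes had. All 3 close relatives of the TFs with enough counts, Foxa3, Cdx1 and Sox7, had it as well, of which Sox7 is on both lists. A ratio above 2 was found for 7 of the 12. Sox7, an HMG box factor close to Sox17, had 4.27, 2.48 and 0.804 CPM in the mESC libraries of 8193825, 8057985 and 7462710 counts. Dab2, an adaptor protein of endocytosis used as a primitive endoderm marker, had 51.5, 20.1 and 11.4 CPM in the same order. Cubn, an endocytic receptor of yolk sac endoderm, had 6.35, 2.11 and 1.47 CPM. Dab2 and Cubn were chosen after their values were seen. None of the 10 pluripotency genes and none of the 10 fibroblast genes had a ratio above 2. In the other direction, Fbn1 of the fibroblast list had a ratio of 0.364, from 8 and 20 counts. Neither the lists nor the 16340 genes were matched to the TFs for level, and ratios from few counts scatter more. Sox17 and Foxa2 had means of 4.17 and 1.78 CPM in mESCs, while every pluripotency gene had at least 47.8 CPM. Nanog had 307, 318 and 287 CPM, and Col1a1 had 71.9, 60.9 and 66.6 CPM. The list was not tested as a set, and the part of library preparation or culture in this order was not tested.

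**Figure D4:**
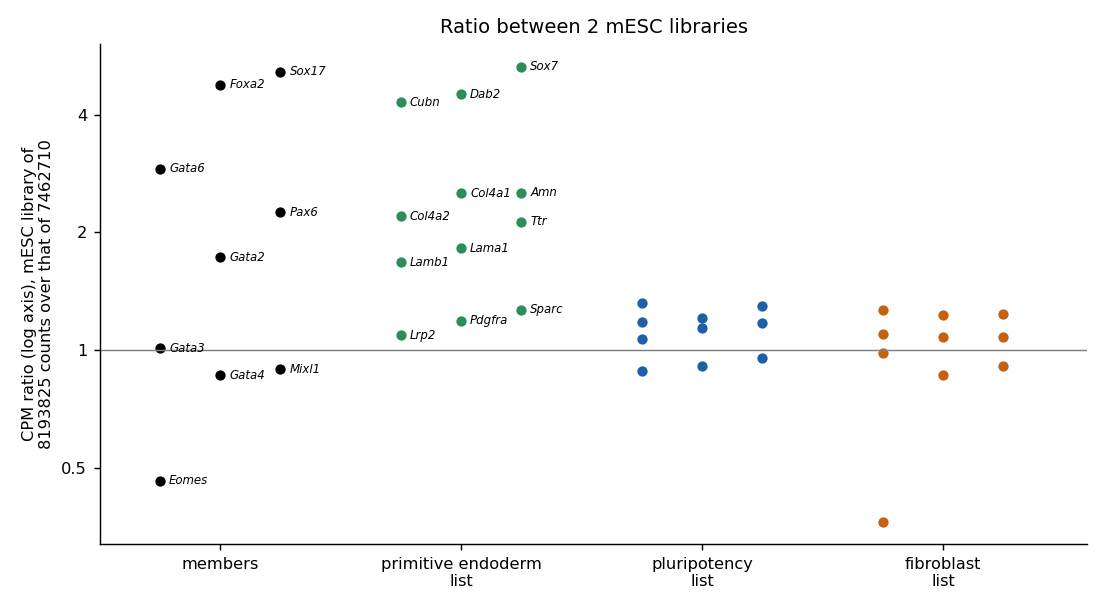
Ratio of CPM (y axis, log scale) in the mESC library of 8193825 counts over that of 7462710 counts, for the TFs and 3 lists with at least 30 counts in mESCs, 1 point per gene. Sox17 and Foxa2 lie near 5 with Sox7, Dab2 and Cubn, while the pluripotency genes lie between 0.886 and 1.32. The lists were not matched for level.

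The lists of lineage markers differed between mESCs and MEFs in both directions. All counts below use the fit across all genes, in which 47.9% of the tested genes passed. Of 12 trophoblast genes, 10 were tested, 4 were higher in mESCs and 2 lower. Esx1, a placental homeobox factor, had 14.6 CPM in mESCs and at most 3 counts in any MEF library, and Tfap2c, an AP-2 factor of trophectoderm and germ cells, had a log2 fold change of 4.03. Elf5, which marks trophoblast stem cells, was not tested. Plac1 (log2 fold change -5.17) and the keratin gene Krt18 (-1.49) were lower in mESCs. The median log2 fold change of the 10 was 0.61.

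Of the 16 primitive endoderm genes, 10 were tested, 3 were higher and 6 lower in mESCs, with a median of -1.50. The higher ones were the laminin gene Lama1 (4.39) and the endocytic genes Amn (3.75) and Lrp2 (3.58). The lower ones, with Pdgfra at -4.22, Col4a2 at -3.67 and Sparc at -2.66 on the log2 scale among them, are known from fibroblasts as well.

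Of 15 primitive streak and definitive endoderm genes, 4 were tested and 1 was higher in mESCs, the homeobox gene Hhex (1.39), and 4 exceeded the floor in no mESC library. The summed level of this list was 45.8 to 51.3 CPM in mESCs, of which Hhex made up a mean of 32.0 CPM, and 15.9 to 22.7 CPM in MEFs. Of 12 early neural genes, 6 were tested and all 6 passed, 4 higher in mESCs with Otx2 (4.07), Zic2 (3.58) and Sox1 (3.33) among them, and Zic1 (-5.29) and Nes (-3.33) lower. Zic2 spanned 16.2 to 94.1 CPM over the mESC libraries.

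**Figure D5:**
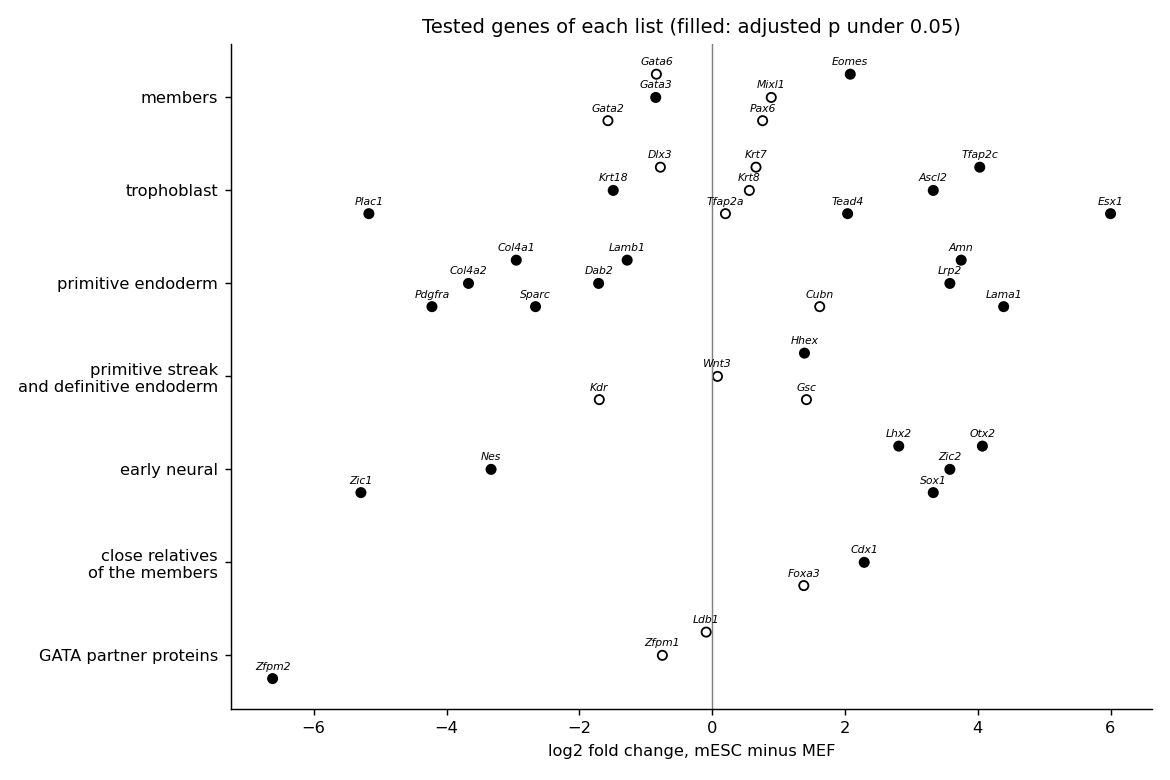
Log2 fold changes (x axis, mESC minus MEF) of the tested genes of each list, 1 point per gene, filled where the adjusted p was under 0.05. The 10 TFs are in the top row, with the 6 tested between -1.57 and 2.08, and Sox17, Foxa2, Gata4 and Cdx2 are not drawn because they had too few counts for the test.

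Close relatives of the TFs were mostly near the floor. Of 12 such genes, 2 were tested and 1 was higher in mESCs, the homeobox gene Cdx1 with a log2 fold change of 2.29, from 0.50 CPM in MEFs to 3.00 CPM in mESCs. The list had 0 calls without the mESC library of 8193825 counts, without that of 8057985 counts, and in the test against a fold change of 2. Cdx1 had 30, 28 and 14 counts in the mESC libraries, while its relative Cdx2 stayed at or under the floor. Of 6 genes for GATA partner proteins, 3 were tested. Zfpm2, a zinc finger cofactor of GATA4, had 8.13 CPM in MEFs and 0.0860 CPM in mESCs, with 0, 1 and 1 counts, and its fitted log2 fold change was -6.62 (edgeR adjusted p = 1.93e-05). The related Zfpm1 and the adaptor Ldb1 had log2 fold changes of -0.75 and -0.09 and did not pass.

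Blood and endothelial markers were set beside the TFs because Gata2, Gata3 and Sox17 are also known from these cells. The summed level of 6 blood markers was 3.28 to 19.6 CPM in MEFs and 61.0 to 72.6 CPM in mESCs, where Laptm5 made up a mean of 65.3 CPM. Ptprc, the defining blood marker, had 0, 1 and 0 counts in mESCs. The summed level of 6 endothelial markers was 32.4 to 38.0 CPM in MEFs and 99.0 to 126 CPM in mESCs, where Egfl7 and Pecam1 had means of 62.9 and 33.3 CPM. The rise in this sum was thus carried by Egfl7 and Pecam1. Tek and Emcn had log2 fold changes of -0.39 and -0.40 and did not pass, and Cdh5 had 3, 1 and 0 counts in mESCs. The part of such cells in the levels of the TFs was not tested.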

How the data were processed

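The RNA of 4 MEF and 3 mESC samples was measured by RNA-seq. Per the labels, the libraries are 3′-biased with molecular identifiers. The authors aligned trimmed reads to mm10 with STAR, collapsed identifiers with Je, ran featureCounts over exons for uniquely mapped reads and deposited the raw counts, with no scaling. The annotation release and strand setting are not given in the sources used here, so reads of overlapping antisense genes could not be told apart. Column names give the cell type but not the sample, so libraries are named by total counts, and 0 per-sample columns remained unused.

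All genes left by filterByExpr were fitted over the 7 libraries in edgeR 4.0.16 under R 4.3.3 (quasi-likelihood, TMM, no covariates), with 0.05 as the threshold of p after Benjamini-Hochberg adjustment. The prior count of log2CPM was 2. Exact permutation tests ran over the 35 assignments of 4 and 3 libraries for the 9 TFs above the floor, two-sided. Poisson intervals were exact at 95%. The code was tested on simulated data. The alternatives were DESeq2 1.42.0, other scalings and filters, a test against a fold change of 2, other prior counts, thresholds and floors, and each library left out in turn. Positions are from GENCODE M21. Members and lists were chosen with earlier results of these data known, and no list was tested as a set. Besides the 10 TFs, genes named are the 3 highest and 3 lowest called genes and the 2 most expressed genes in mESCs of each list, and genes that overlap a TF. Genes named outside this rule, such as Elf5, Nanog, Ptprc, Cdh5, Emcn, Kdr, Foxa3, Twist1, Dab2 and Cubn, were chosen after their values were seen.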

Additional observations from a re-analysis of the deposited data

Results flagged for a closer look

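In groups of 4 libraries, a value was singled out when its distance to the nearest other library, relative to the whole range, exceeded Dixon's 95% critical value. Of 49 genes, 5 had such a MEF library, where chance gives about 1 in 20, or 2.45, if values are normally distributed. A gene with 0 counts in all MEF libraries but 1 exceeds that critical value by construction, as Gata4 and Cdx2 did. The rate of 1 in 20 does not hold for such genes. Mixl1 had 1.84 CPM, from 12 counts, in the MEF library of 6528643 counts and 3.56 to 3.71 CPM in the others. Gata4 had 0.684 CPM, from 5 counts, in the library of 7312679 counts and 0 in the others. Cdx2 had 0.109 CPM in the library of 9176467 counts from 1 count, which is under the floor. In the library of 7312679 counts, Amn had 1.37 CPM, from 10 counts, against at most 0.153 CPM, and Col4a1 had 227 CPM against 185 to 190 CPM.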

How the results depend on the processing

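No paired analysis was possible because the count columns carry no number that is stated to be that of a sample. Testing against a fold change of 2 left 3991 of 7938 genes and 1 of the 2 TFs, Eomes, by construction of a stricter test. With DESeq2, 4 of 6 tested TFs passed, with Gata6 and Pax6 added, beside 50.1% of all genes tested. Without a filter beyond 1 count, 5 of 10 passed, with Gata6, Foxa2 and Sox17 added, beside 24.5% of 33544 genes. When one library was left out in turn, 2 to 5 TFs passed, of 6 to 8 tested. Without the mESC library of 7462710 counts, 5 of 8 passed, with Foxa2, Sox17 and Pax6 added, beside 7083 of 17356 genes. Foxa2 and Sox17 were tested there only because their lowest mESC library was left out. With library size as the only scaling, mESCs were higher in 5205 genes and lower in 3334, in place of 3785 and 4153. Under that setting Eomes, Mixl1 and Pax6 passed and Gata3 did not. Of 77 log2 fold changes of the 6 tested TFs under an alternative, 65 stayed on their side of the threshold, 3 lost it (all Gata3), 9 gained it and 0 changed direction. Causes were not tested. Depth limits Cdx2 in both cell types and Gata4 in MEFs.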
